A study of Homo sapiens with 6 samples.

Results

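The BCL2 family decides whether a cell starts apoptosis through its mitochondria, and 10 of its genes were followed in gastric cancer cells after knockdown of C1GALT1, the enzyme that extends GalNAc-type O-glycans. They are the pro-survival genes BCL2, BCL2L1 and MCL1, the pore-forming effectors BAX and BAK1, and the BH3-only genes BBC3, PMAIP1, BCL2L11, BID and BIK. They were chosen by name, as the gene probes whose RefSeq accession on the array belongs to one of them, which gave 15 of 58201 probes and 10 of 22439 named genes. All 10 were represented, and 4 of them had more than 1 probe.

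Pro-survival proteins hold BAX and BAK1 in check at the mitochondrial outer membrane. BH3-only proteins respond to stress, bind the pro-survival proteins and can activate the effectors, which then open the membrane and release cytochrome c to start the caspases. Part of this control is transcriptional, for example through FOXO factors for BCL2L11, and part is by protein turnover and localization, which an mRNA array does not measure.

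AGS is an established human gastric adenocarcinoma line. Cells were transfected with the nontargeting siRNA (si-Control) or with 1 siRNA against C1GALT1 (si-C1GALT1-3), and RNA was taken 48 h later from 3 samples per group, with 1 one-colour Agilent array for each sample. Both groups were cultured in RPMI1640 with serum. The arrays hold 1 C1GALT1 siRNA, so an effect of this siRNA alone and an effect of lower C1GALT1 cannot be told apart. Arrays with the same replicate number shared a slide, with si-Control always in position 1 and si-C1GALT1-3 in position 2, so position and treatment cannot be told apart either. Nothing in the labels says that the samples were separate cultures, and the p-values then measure only the spread between these samples. In bulk RNA, fewer cells with a transcript and less of it per cell cannot be told apart.

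The values are log2 signals after quantile normalization over the 6 arrays, and each difference is si-C1GALT1-3 minus si-Control, fitted with limma over all probes. A probe was called at p under 0.01 and at least 2-fold, the threshold the study used. A low-signal region in the centre of the si-Control replicate 2 array, 15.9% of its gene spots, was set to missing. With those spots left out, 67.5% to 72.7% of the gene spots were well above background per array, and none was saturated. The errors given are those between 3 arrays per group. The epithelial markers KRT8, KRT18, KRT19, EPCAM, CDH17, CLDN4 and TFF1 were well above background on all 6 arrays. So were 1 of 5 fibroblast, 3 of 4 leukocyte and 1 of 4 endothelial markers. C1GALT1 itself had log2 signals of 12.22, 13.03 and 12.62 in the si-Control samples against 11.76, 11.98 and 11.13 in si-C1GALT1-3. The groups did not overlap. Its log2 fold change of -1.0 (standard error 0.31, adjusted p = 0.265 from limma over all probes) did not pass p under 0.01.

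None of the 10 genes passed p under 0.01 and 2-fold in limma at its brightest probe, in either direction, and 2 of them, BAX and BCL2L11, had an unadjusted p under 0.05. None of the 10 was called by the methods' t-test either, with 1 at an unadjusted p under 0.05. Among all named genes, read at 1 probe each, limma called 3.41%, of which 2.08% higher and 1.33% lower, and 16.6% had an unadjusted p under 0.05. Over all 58193 probes tested 961 were called higher and 577 lower (1.65% and 0.992%, together 2.64%), so 62.5% of the calls were upward, or 72.6% with no normalization between arrays. An adjusted p under 0.05 in limma was reached by 49 probes, 0.0842% of all, and by none of the 10 genes. The median log2 fold change of the 10 was 0.098, against 0.019 over all named genes. Their median absolute value was 0.32, against 0.30 over all named genes. At the brightest probe 6 of the 10 had a positive difference and 4 a negative one.

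**Figure D1:**
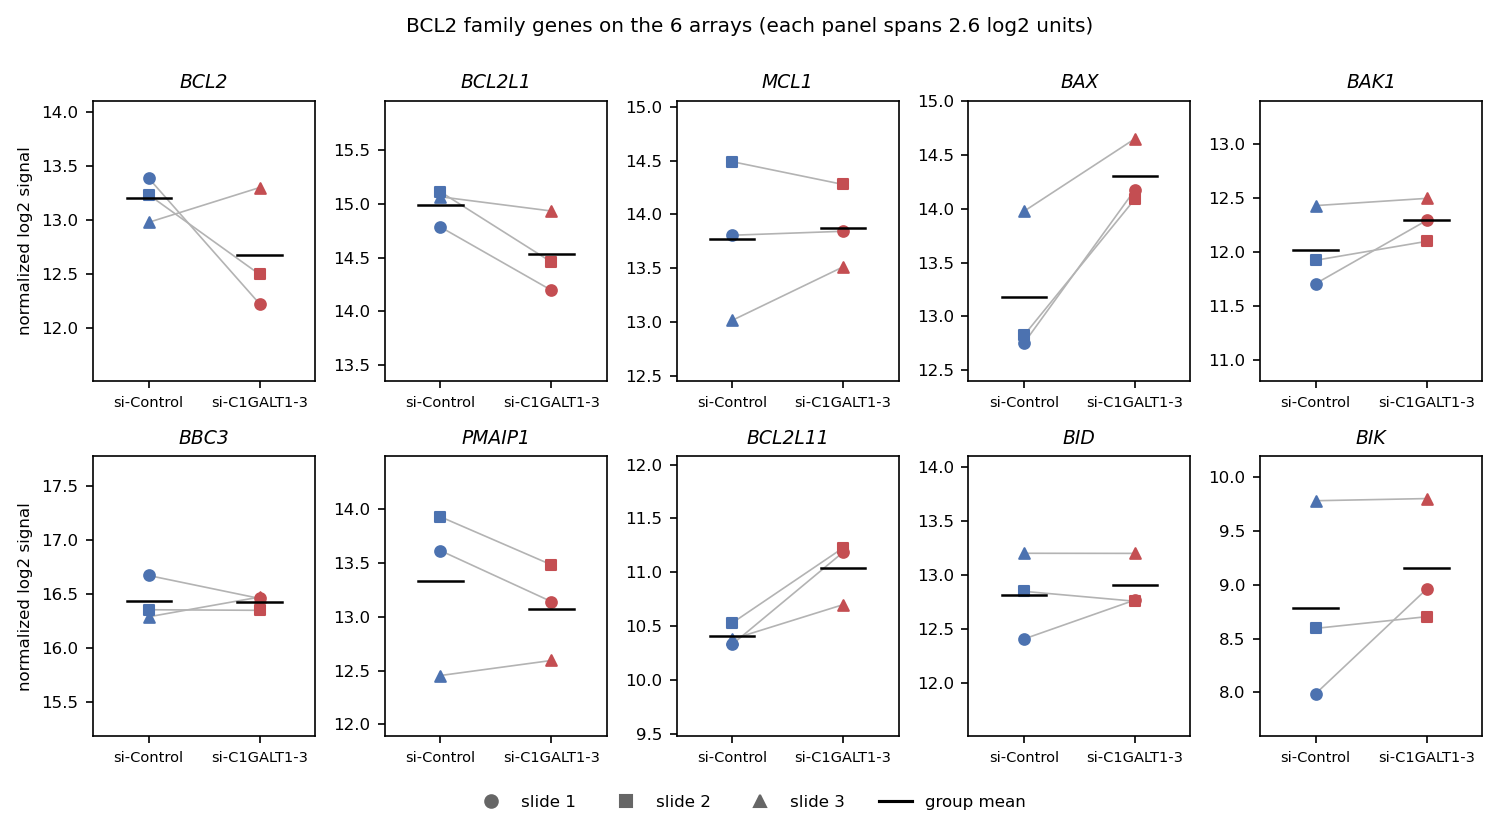
Normalized log2 signal (y axis) of the 10 BCL2 family genes on the si-Control (blue) and si-C1GALT1-3 (red) arrays, each at its brightest probe, with lines joining arrays of the same slide and black bars at the group means. BAX and BCL2L11 are the genes whose groups do not overlap, and slide 3 (triangles) lies high for BAX and BIK and low for MCL1 and PMAIP1 in both groups.

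BAX, which forms pores in the outer membrane once activated, had the largest difference of the 10. Its probe A_23_P208706 had log2 signals of 12.75, 12.82 and 13.98 in si-Control replicates 1, 2 and 3, against 14.17, 14.09 and 14.65 in si-C1GALT1-3 replicates 1, 2 and 3. Every si-C1GALT1-3 array lay above every si-Control array, although si-Control replicate 3 came close to the si-C1GALT1-3 arrays. The means were 13.18 ± 0.69 and 14.30 ± 0.30 (SD, n = 3), giving a log2 fold change of 1.12 with a standard error of 0.38 (adjusted p = 0.296 from limma), a 2.17-fold higher signal, with a 95% interval from 0.18 to 2.06. The unadjusted limma p of 0.0271 missed the threshold.

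The call for BAX depended on the processing, and was gained in 4 of the alternatives. Within slides 1, 2 and 3 the difference was 1.42, 1.27 and 0.67 on the log2 scale, higher on 3 of 3. With the replicate number, and so the slide, as a block in limma, BAX passed p under 0.01 and 2-fold with an unadjusted p of 0.00737, a standard error of 0.20 and an adjusted p of 0.194. In that fit 1.74% of all probes passed upward and 1.02% downward. It also passed without si-Control replicate 3, with a log2 fold change of 1.52 and an adjusted limma p of 0.158, with no normalization between arrays (1.17) and with normexp background correction (1.12). Without si-Control replicate 1 or 2 it was 0.89 or 0.94 and did not pass, nor did it without any of the si-C1GALT1-3 arrays. With the median over the BAX probes it was 0.77, under 2-fold. The adjusted p over the alternatives that give one lay between 0.158 and 0.557.

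This BAX probe is printed at 10 places on each array, which shows the error of the spots themselves. The SD over its spots was between 0.059 and 0.10 on the 6 arrays, against an SD of 0.69 between the si-Control arrays. The lowest spot on any si-C1GALT1-3 array, 13.99, lay below the highest spot on si-Control array 3, 14.08, and above every spot on si-Control arrays 1 and 2. On si-Control array 2, 1 of the 10 spots lies in the low-signal region, where its log2 processed signal was 10.78 against a median of 12.72 at the other 9, and it was left out.

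**Figure D2:**
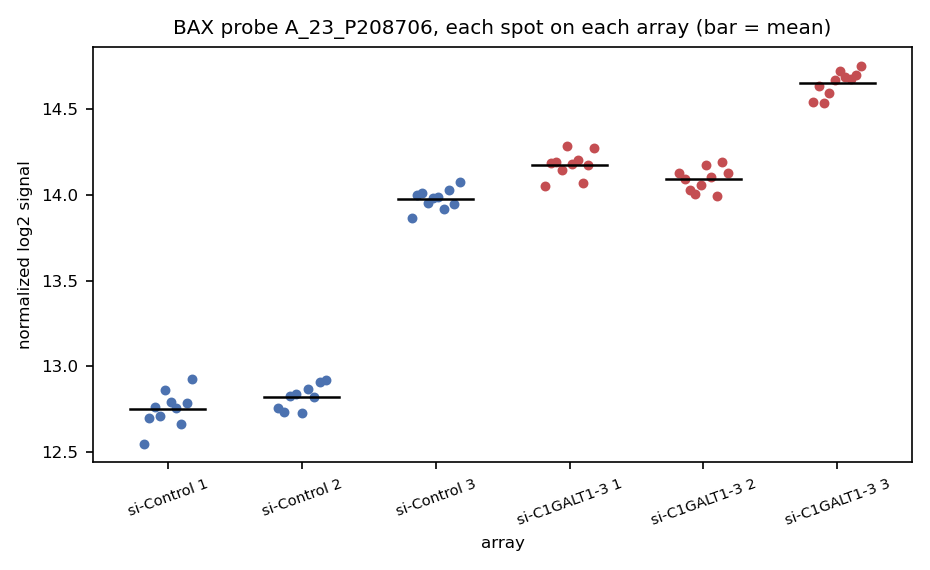
Normalized log2 signal of each spot of the BAX probe A_23_P208706 (points) on each of the 6 arrays (x axis), with the mean as a bar. The spots of an array lie close together, with SDs of 0.059 to 0.10, while the spots of si-Control array 3 (13.87 to 14.08) lie above all those of the other si-Control arrays.

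The other BAX probe, A_33_P3341144, is annotated to a different BAX transcript and gave a smaller difference. Its log2 signals were 11.36, 11.58 and 12.59 without knockdown against 12.08, 11.94 and 12.77 with it. These groups overlapped through si-Control replicate 3. This is a log2 fold change of 0.42 (standard error 0.40, adjusted p = 0.702 from limma). Within slides 1, 2 and 3 it was 0.72, 0.36 and 0.17, so both BAX probes were higher on every slide.

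BCL2L11 encodes BIM, a BH3-only protein that can bind all the pro-survival members and activate BAX. Its brightest probe, A_24_P122921, had log2 signals of 10.33, 10.53 and 10.38 in si-Control cells against 11.19, 11.23 and 10.70 after si-C1GALT1-3. The groups did not overlap, and si-C1GALT1-3 replicate 3 was the nearest to the controls. The means were 10.41 ± 0.10 and 11.04 ± 0.29 (SD, n = 3). The log2 fold change of 0.62 (standard error 0.19, adjusted p = 0.255 from limma) is 1.54-fold, short of 2-fold, with a 95% interval from 0.16 to 1.09. Groups that did not overlap were thus seen in 2 of the 10 genes, both higher, and in 25.3% of all named genes, 14% higher and 11.2% lower.

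The probes of BCL2L11 went in different directions. A_33_P3398526 had 10.22, 10.37 and 10.22 in si-Control cells and 10.84, 10.73 and 10.30 in si-C1GALT1-3 cells, a log2 fold change of 0.36 (standard error 0.18). A_33_P3251932 had 9.01, 9.12 and 9.45 in si-Control cells and 8.69, 8.85 and 9.07 after si-C1GALT1-3, a log2 fold change of -0.32 (standard error 0.18). Within each slide A_24_P122921 and A_33_P3398526 were higher and A_33_P3251932 was lower, and no probe of the gene was called. A_33_P3398526 and A_33_P3251932 carry the same transcript accession on the array, so the accession does not separate them.

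The promoter windows of BAX and BCL2L11, the genes whose groups did not overlap, are shown so that their sequence can be read beside these values. The windows run from 250 bases before to 50 bases after the gene's start in RefSeq (GRCh38.p14), 5′ to 3′, in lower case, with matches on either strand to 5 motifs in capitals. The motifs searched were CACGTG (the E-box of MYC and USF proteins), GTAAACA (a FOXO core), CCAAT (the box of NF-Y), GGGCGG (a GC box) and TATAAA.
BAX, chr19:48954625-48954924, plus strand: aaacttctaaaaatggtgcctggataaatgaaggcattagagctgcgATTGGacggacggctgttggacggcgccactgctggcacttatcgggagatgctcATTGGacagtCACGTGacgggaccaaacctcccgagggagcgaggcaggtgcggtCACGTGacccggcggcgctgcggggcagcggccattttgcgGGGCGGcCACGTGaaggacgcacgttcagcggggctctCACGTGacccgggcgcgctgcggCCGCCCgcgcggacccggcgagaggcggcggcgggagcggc
BCL2L11, chr2:111120664-111120963, plus strand: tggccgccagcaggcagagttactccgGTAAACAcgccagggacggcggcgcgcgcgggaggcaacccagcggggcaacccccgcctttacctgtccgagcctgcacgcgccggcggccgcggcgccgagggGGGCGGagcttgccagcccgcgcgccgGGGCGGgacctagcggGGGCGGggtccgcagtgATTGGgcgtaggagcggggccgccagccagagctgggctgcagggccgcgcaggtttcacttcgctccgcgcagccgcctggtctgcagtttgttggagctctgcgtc
The BAX window held 4 copies of CACGTG. Of 35116 promoter windows of this length, 7.26% held at least 1 copy and 0.0142% held as many as BAX. BAX also held CCAAT and GGGCGG at 2 places each, and 10.8% and 26.7% of windows held as many or more. The BCL2L11 window held GTAAACA at 1 place, as 3.42% of windows did, CCAAT at 1 place (34.6%) and GGGCGG at 3 (15.8% of windows held as many). Neither window held TATAAA, which 11.5% of all windows hold. No matches overlapped each other in these windows. A match is a description of letters, and a missing match says only that the letters are not in this window. The E-box was in 4 of the 13 windows searched. MCL1 and BIK had no window among these, and BID had several that overlap each other. Besides BAX the E-box was in windows of BBC3 (log2 fold change -0.012) and BID (0.090). The BID windows with it overlap and hold the same site. BAK1 (0.28) held the box of NF-Y and the GC box at 2 places each, as BAX did. The FOXO core was in 1 of the 13, that of BCL2L11. FOXO1, read on 2 si-Control arrays, and FOXO3 differed by -0.12 and 0.055 on the log2 scale (standard errors 0.31 and 0.22). Whether a motif bears on these values was not tested.

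BAK1, the other effector, differed little. Its log2 signals were 11.70, 11.92 and 12.43 for si-Control against 12.29, 12.10 and 12.50 for si-C1GALT1-3, and the groups overlapped. Its log2 fold change of 0.28 (standard error 0.23, adjusted p = 0.662 from limma) had a 95% interval from -0.30 to 0.85, which excludes a 2-fold change either way. It was higher on 3 of 3 slides, by 0.59, 0.18 and 0.067.

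Among the pro-survival genes BCL2L1, which encodes BCL-XL, had log2 signals of 14.78, 15.11 and 15.06 in control cells against 14.20, 14.46 and 14.93 in knockdown cells. The groups overlapped through si-C1GALT1-3 replicate 3, while the difference was negative on 3 of 3 slides (-0.59, -0.65 and -0.13). A log2 fold change of -0.46 resulted (standard error 0.23, adjusted p = 0.454 from limma), its 95% interval running from -1.03 to 0.11.

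BCL2, the founding member of the family, was read by a pair of probes. A_33_P3355185 had log2 signals of 13.39, 13.24 and 12.98 in si-Control cells and 12.22, 12.50 and 13.30 in si-C1GALT1-3 cells. It was lower on slides 1 and 2 and higher on slide 3, so that its log2 fold change came to -0.53 (standard error 0.31, adjusted p = 0.520 from limma). A_23_P352266, annotated to the longer BCL2 transcript, was well above background on 1 of 6 arrays, with signals between 4.74 and 5.40, so it gave no measured difference. It was the single probe of the 15 not well above background on every array. The bright probe, A_33_P3355185, is annotated to the shorter BCL2 transcript. Which transcript that bright probe reads cannot be settled without probe sequences.

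MCL1 encodes a short-lived pro-survival protein. It had log2 signals of 13.81, 14.49 and 13.02 in si-Control cells against 13.84, 14.28 and 13.51 in si-C1GALT1-3 cells. The groups overlapped throughout, and the log2 fold change of 0.11 (standard error 0.42, adjusted p = 0.956 from limma) had a 95% interval from -0.93 to 1.14. A 2-fold rise of MCL1 was therefore not distinguishable from no change at this spread. Its sign turned without si-Control replicate 3, to -0.27, and without si-C1GALT1-3 replicate 2, to -0.094.

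The other BH3-only genes gave no call. BBC3 encodes PUMA, a BH3-only protein, and had 16.67, 16.35 and 16.29 in si-Control cells against 16.46, 16.35 and 16.47 in si-C1GALT1-3 cells, on the log2 scale. Its log2 fold change of -0.012 (standard error 0.15, adjusted p = 0.993 from limma) had the narrowest 95% interval of the 10, from -0.39 to 0.37. PMAIP1 encodes NOXA, the BH3-only partner of MCL1, and had 13.61, 13.93 and 12.45 against 13.14, 13.48 and 12.59. These groups overlapped, and the log2 difference of -0.26 (standard error 0.45, adjusted p = 0.865 from limma) had a 95% interval from -1.37 to 0.85.

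BID, which caspase-8 cleaves to link death receptors to mitochondria, had log2 signals of 12.41, 12.85 and 13.20 in si-Control cells against 12.77, 12.76 and 13.20 in si-C1GALT1-3 cells at A_24_P187948. On the log2 scale this differed by 0.090 (standard error 0.26, adjusted p = 0.935 from limma), and the other BID probe gave -0.019 (standard error 0.22). BIK, a BH3-only protein of the endoplasmic reticulum, had the largest standard error of the 10. It had 7.99, 8.59 and 9.78 in si-Control cells against 8.96, 8.70 and 9.80 in si-C1GALT1-3 cells, a log2 fold change of 0.37 (standard error 0.53, adjusted p = 0.826 from limma). Of the 10 genes, the 95% intervals of BAK1, BBC3 and BID lay within 2-fold either way. Those of MCL1, BAX, BCL2L11 and BIK reached 2-fold higher and those of BCL2, BCL2L1 and PMAIP1 reached 2-fold lower.

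**Figure D3:**
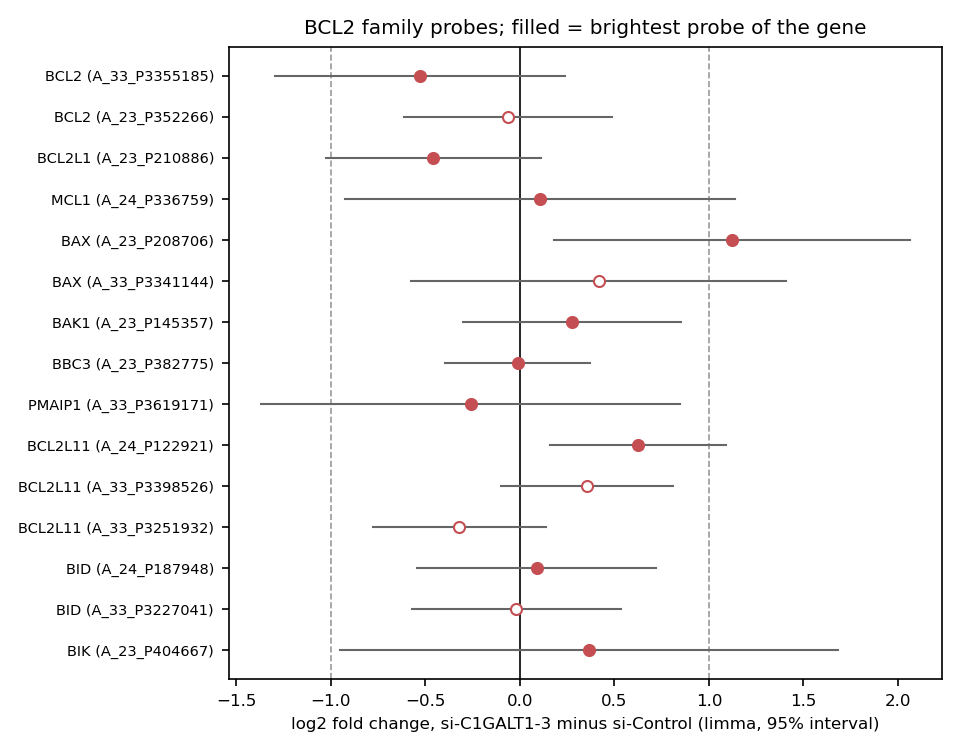
Log2 fold change (x axis, si-C1GALT1-3 minus si-Control) of the 15 BCL2 family probes with 95% intervals from limma. Filled points are the brightest probe of each gene, open points the others, and dashed lines mark 2-fold. The intervals of BAX (0.18 to 2.06) and BCL2L11 (0.16 to 1.09) at the brightest probe exclude 0.

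Part of the spread of these genes followed the slide. On both arrays of slide 3, BAX, BAK1, BID and BIK lay above their group means and MCL1 and PMAIP1 below. For BAX the deviation was 0.79 in si-Control and 0.35 in si-C1GALT1-3 cells, and for BIK 0.99 and 0.65. For MCL1 it was -0.75 and -0.37, and for PMAIP1 -0.88 and -0.48. With the slide as a block the standard error was smaller for these genes, going from 0.53 to 0.25 for BIK, from 0.42 to 0.19 for MCL1 and from 0.45 to 0.18 for PMAIP1. None of these 3 genes was called in that fit, where their adjusted p was 0.514, 0.811 and 0.523 in limma. BCL2 and BBC3 lay on opposite sides of their group means on slide 3. Their deviations were -0.22 and -0.15 in si-Control and 0.63 and 0.045 in si-C1GALT1-3 cells. For BCL2 the standard error rose from 0.31 to 0.35 with the slide as a block. What differed between slides was not tested.

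The change of BAX was set against that of each of the 3 pro-survival genes within each array. The pairs were chosen after the values were seen and are therefore given with no test. Each gene was read at its brightest probe, A_23_P208706 for BAX and A_33_P3355185 for BCL2. The dimmer BAX probe, A_33_P3341144, had a smaller log2 fold change of 0.42 and was not set against these genes. The values below therefore hold for the brightest BAX probe only. The log2 difference of BAX minus BCL2L1, relative to its si-Control mean, was -0.23, -0.48 and 0.71 in si-Control cells against 1.78, 1.43 and 1.52 in si-C1GALT1-3 cells. The groups did not overlap, and the mean difference was 1.58, with within-slide values of 2.01, 1.92 and 0.81. For BAX minus BCL2 the si-Control arrays had -0.62, -0.39 and 1.01 and the si-C1GALT1-3 arrays 1.97, 1.61 and 1.36, a mean difference of 1.65. Its within-slide values were 2.59, 2.00 and 0.35. For BAX minus MCL1 the groups overlapped, with -0.47, -1.08 and 1.55 in si-Control cells against 0.92, 0.40 and 1.72 after si-C1GALT1-3. Its mean difference was 1.01 and its within-slide values were 1.39, 1.48 and 0.18, and the mean was 0.47 without si-Control replicate 2, 1.79 without si-Control replicate 3 and 0.66 without si-C1GALT1-3 replicate 3. With no normalization between arrays the mean differences were 1.65 for BCL2L1, 1.63 for BCL2 and 1.04 for MCL1. All 3 differences contain the same BAX values, and BAX by itself already had groups that did not overlap at this probe. A shift between probes describes their values on these arrays and does not say which of the genes changed. Whether the genes changed unequally was not tested.

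**Figure D4:**
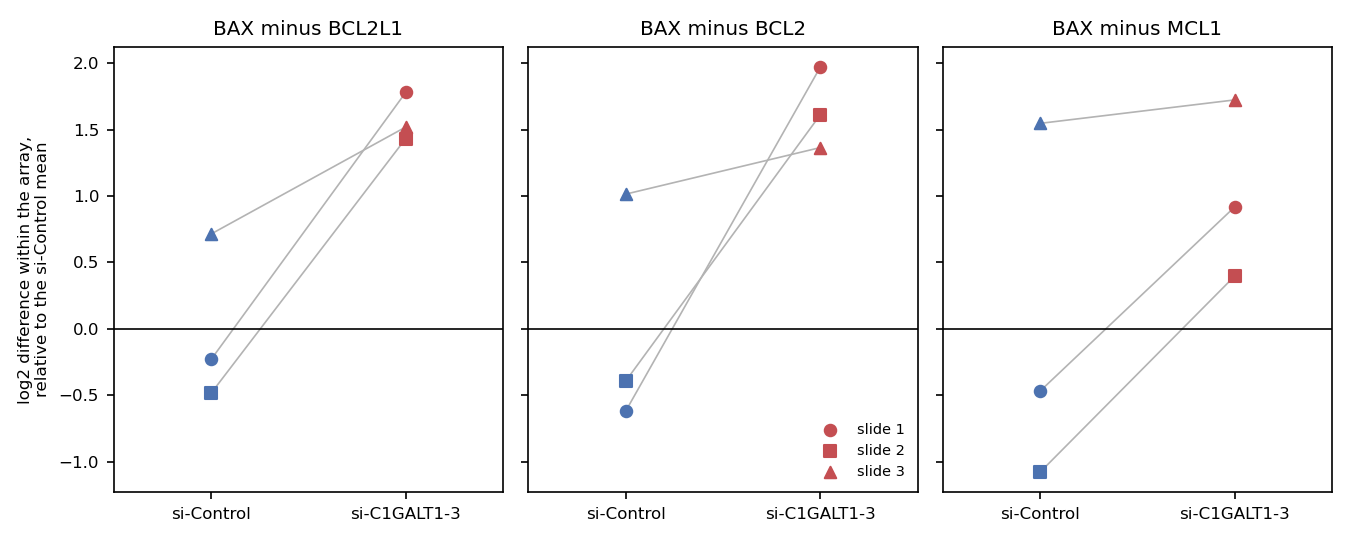
Log2 signal of BAX minus that of BCL2L1 (left), BCL2 (middle) or MCL1 (right) within each array, relative to the si-Control mean (y axis), with lines joining arrays of a slide. Each gene is read at its brightest probe. The 3 si-C1GALT1-3 arrays lie between 1.36 and 1.97 and above every si-Control array for BCL2L1 and BCL2, while for MCL1 the groups overlap through si-Control array 3 (1.55).

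The genes around the family were read from 7 further lists, 66 genes analysed here in all, each at its brightest probe. Of these, 0 were called higher and 1 lower in limma, BIRC5, where 2.08% and 1.33% of named genes were called.

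BIRC5 encodes survivin, an inhibitor-of-apoptosis protein that also works in mitosis. It had 12.28, 12.31 and 12.96 in si-Control cells and 11.29, 10.92 and 10.61 in si-C1GALT1-3 cells, and fell by 1.58 on the log2 scale (standard error 0.27, adjusted p = 0.120 from limma). With the slide as a block its p was 0.0109 in limma and it was no longer called. BIRC3, another inhibitor of apoptosis, differed by -0.79 on the log2 scale (standard error 0.13, adjusted p = 0.110 from limma), short of 2-fold. Of the 8 genes of inhibitors of apoptosis and their mitochondrial antagonists 5 had a negative difference, the median being -0.079. BIRC7 had the largest positive value at the brightest probes, 0.24. A dimmer DIABLO probe had 0.76 (standard error 0.29), against -0.092 at the brightest DIABLO probe.

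Within the rest of the BCL2 family, 13 genes, none was called and the median log2 fold change was 0.046. BCL2L13, a mitochondrial BCL2-like protein, was higher at all 3 of its probes. At the brightest it had 11.16, 11.11 and 11.31 in si-Control cells and 11.87, 11.85 and 12.07 in si-C1GALT1-3 cells, a log2 fold change of 0.74 (standard error 0.14, adjusted p = 0.133 from limma). This is 1.67-fold, short of the 2-fold threshold, and the groups did not overlap. BCL2L14 had the largest positive value, 0.87 (standard error 0.52), and BCL2L15 the most negative, -0.63 (standard error 0.34). A dimmer BCL2L15 probe went the other way, with 0.67 (standard error 0.24), and was read on 2 si-Control arrays. HRK, a BH3-only gene, had -0.53 (standard error 0.20) and BCL2L12 -0.54 (standard error 0.20), and in both the groups did not overlap.

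Among the 10 genes of the apoptosome and caspases analysed here the median was 0.15 and 7 values were positive. At the brightest probes CASP8, the initiator caspase of death receptors, had the largest, 0.53 (standard error 0.25). APAF1, the scaffold of the apoptosome, was at the other end with -0.53 (standard error 0.27). Dimmer probes went further both ways, with 1.53 (standard error 0.55) for DFFB, 0.89 (0.17) for CASP10 and -0.67 (0.20) for CASP2. A further CASP10 probe had -0.47 (standard error 0.26), and none of these dimmer probes was called. The 10 partners at the outer membrane had a median of 0.022 and none was called. AIFM1 and VDAC3 marked its ends at 0.43 and -0.25. In the 9 death receptor genes the median was 0.17. TNFSF10, the death ligand TRAIL, had 7.59, 8.47 and 6.10 in si-Control cells and 10.31, 10.06 and 8.96 in si-C1GALT1-3 cells at its brightest probe. That log2 fold change of 2.39 (standard error 0.68, adjusted p = 0.238 from limma) missed p under 0.01. It passed in 5 alternatives, with the slide as a block or dim probes left out (both 2.39), the 75th percentile in place of quantile (2.38), normexp (1.78) or without si-Control replicate 2 (2.95). A dimmer TNFSF10 probe, A_23_P121253, was called, with 2.61 (standard error 0.44, adjusted p = 0.116 from limma), while the remaining probe had 0.27 (standard error 0.34). TNFRSF1A, the main TNF receptor, had -0.96 (standard error 0.23), just short of 2-fold. It passed p under 0.01 and 2-fold in 5 alternatives, with the low-signal region kept (-1.05), with normexp (-1.04), with the series table (-1.03), without si-Control replicate 3 (-1.07) and without si-C1GALT1-3 replicate 3 (-1.15).

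Among the 10 upstream transcription factors analysed here, the median log2 fold change was -0.038 and none was called. MYC had the largest positive value, 0.37 (standard error 0.17). TP73 was at the other end with -0.45 (standard error 0.40), read on 2 si-C1GALT1-3 arrays because its spot on replicate 2 was marked non-uniform. In the 6 genes of MCL1 and NOXA turnover the median was -0.18. USP13, a deubiquitinase, had -0.83 (standard error 0.17, adjusted p = 0.144 from limma) with groups that did not overlap, and HUWE1, a ubiquitin ligase for MCL1, had the largest positive value, 0.30 (standard error 0.20).

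BCL2L11 had the smallest limma p of the 10 genes. Over the 6 arrays, the 5 other genes with the most similar pattern among 18647 probes well above background were DEGS1, BTN3A2, ELAVL4, ELMO3 and PHF3, with Pearson r of 0.997, 0.994, 0.992, 0.991 and 0.991. These are the highest values of a search over 18647 probes with 6 points each, so r this high can arise from the search itself. Points also shared arrays and slides, and the values are descriptions. At the BTN3A2 probe the log2 fold change was 1.25, with a standard error of 0.28.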

How the data were processed

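Gene expression was measured on 6 arrays, 3 per group. The authors deposited the spot intensity of each array as written by Agilent Feature Extraction 10.5.1.1 (submitters' processing notes), background-corrected and detrended within the array and not normalized between arrays. The deposited series table gives, for these spots, the intensity after background subtraction only. Here log2 of the processed signal was taken, control spots (2075) were left out, and spots flagged non-uniform or population outliers, 100 to 424 per array, and 9712 spots of the low-signal region of si-Control replicate 2 were set to missing. Arrays were quantile normalized, spots of a probe averaged, and groups compared with limma 3.58.1 (lmFit, eBayes; R 4.3.3), p-values being adjusted by Benjamini-Hochberg over all probes, with dim probes kept. The fit was tested on simulated arrays with known changes, drawn independently for each array and so without shared slides. It called 40.3% of the changes of 1 on the log2 scale and 88.1% of those of 2.

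Probes were named through RefSeq accessions of GRCh38.p14 (31104 of 58201). The array's header names another build, so no gene coordinates are given beyond the promoter windows, which carry their own. The brightest probe of a gene was the one counted. Named were C1GALT1, every probe of the 10 genes, the called genes and the extremes of each other list, and the 5 genes most like the member with the smallest p. Genes named beyond this rule (BIRC3, BCL2L13, HRK, BCL2L12, FOXO1 and FOXO3) were chosen after their values were seen, as were the dimmer probes of TNFSF10 and BCL2L15. Some genes of the other lists are not reported here, and counts and medians leave them out. The members and lists were chosen with earlier results of these data known. Arrays of the same number share a slide per the file headers, and their deviations from the group means correlated at 0.198, 0.215 and 0.329. The numbers were therefore taken as pairs in the within-slide differences and in the fit with the slide as a block. The main fit had no block. It gave the calls, standard errors, intervals and adjusted p-values wherever no other fit is named. A planned search for a motif in the proteins was not run, and the mean spot signal planned for normexp is replaced by the median.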

Additional observations from a re-analysis of the deposited data

How the results depend on the processing

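With the replicate block, that is the slide, 1 of the 10 genes (BAX) was called higher, against 0 without it, and BIRC5 was lost. BAX was also the 1 gene called with no normalization between arrays (log2 fold change 1.17) and with normexp on the median spot signal (1.12), and the count ranged from 0 to 1 with each array left out. The cause was not tested. No alternative called a gene of the 10 lower. BAX, BAK1, BCL2L11, BCL2 and BCL2L1 kept their sign in all 17 alternatives. With each array left out they ranged from 0.89 to 1.52, 0.12 to 0.47, 0.53 to 0.79, -0.84 to -0.30 and -0.66 to -0.29. Among these, the moves of over 1.5 times were in BAK1, BCL2 and BCL2L1. For BAK1 they came without si-Control replicate 1 (0.12), si-Control replicate 3 (0.47) or si-C1GALT1-3 replicate 3 (0.18). BCL2 moved without si-C1GALT1-3 replicate 1 (-0.30) or 3 (-0.84), and BCL2L1 without si-C1GALT1-3 replicate 1 (-0.29). With the median over a gene's probes BCL2L11 came to 0.36 and BCL2 to -0.30, also moves of over 1.5 times. BBC3 turned to 0.077 with no normalization and 0.043 with normexp, and MCL1 to -0.0063 with normexp and -0.0051 with the series table. With each array left out BBC3 ranged from -0.087 to 0.10, BID from -0.12 to 0.28, BIK from -0.034 to 0.85, MCL1 from -0.27 to 0.47 and PMAIP1 from -0.70 to 0.038. C1GALT1 passed p under 0.01 when dim probes were left out (-1.0), with 38658 probes tested. All probes called were 1538, and 920 with normexp, 896 with the ordinary t-test and 1126 to 1781 with each array left out. With the low-signal region kept 40.2% of the calls were upward. The count at an adjusted p under 0.05, 49, ranged from 0 to 545 (dim probes left out). The 75th percentile in place of quantile moved the median of all probes to -0.11.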
